A study of Mus musculus with 24 samples.

Results

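The vitamin D receptor effect was compared between punches of 2 brain regions, nucleus accumbens and ventral tegmental area (VTA), in mice given morphine, as 12 libraries from 6 mice out of the 24 libraries of the series. Each mouse gave a library per region, so every gene had a difference between regions (log2 accumbens value minus log2 VTA value) in each mouse, and the 3 VDR-/- mice (Vdr-/- below, labelled 2.0, 2.1 and 2.2) were set against the 3 VDR+/+ mice (wild-type, labelled 1.0, 1.1 and 1.2). All were C57BL/6 mice given a single intraperitoneal injection of morphine sulfate at 5 mg/kg, and the brain was taken 90 min later, a time given for the accumbens. RNA came from bilateral micropunches of the accumbens (core and shell) and of the VTA and was sequenced as strand-specific libraries of whole tissue. The Vdr-/- mice were not limited to a cell type or region in their loss of the receptor and were raised on a diet rich in calcium and lactose, so that genotype and diet cannot be told apart. The 12 PBS-treated libraries (3 mice per genotype and region, the vehicle in place of morphine) served as other mice with the same genotypes.

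The vitamin D receptor is a nuclear receptor that binds calcitriol, pairs with a retinoid X receptor and acts on transcription at paired repeats of a short DNA motif. The VTA holds the dopamine neurons that project to the accumbens, where medium spiny neurons carry dopamine and opioid receptors. Morphine acts on the mu opioid receptor of inhibitory neurons in the VTA and releases the dopamine neurons from inhibition, and this pathway is known for its part in opioid reward. A Vdr effect that is the same in both punches and an effect seen in a single punch are therefore different things to ask for, and the comparison was made to separate them.

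Reads on genes ranged from 9328602 to 19363073 per morphine library. Vdr itself was near the limit of detection, with 2, 3 and 1 reads in the wild-type accumbens and 5, 6 and 0 in the Vdr-/- accumbens, and with 17, 6 and 5 reads in the wild-type VTA and 6, 8 and 12 in the Vdr-/- VTA. These counts overlapped and were not lower in the Vdr-/- mice, so they do not check the genotype labels, which were taken as given. Whether the counted reads lie outside the deleted part of the gene is not known here. The medium spiny neuron genes summed to between 4917 and 6657 CPM (reads scaled to the library total) in the accumbens and to 925 to 1030 in the VTA. The dopamine transporter Slc6a3 is a defining gene of dopamine neurons. It stood at 7.43 to 19.5 normalised counts in the accumbens and at 234 to 6154 in the VTA. Each marker was thus higher in its own punch, but Slc6a3 varied widely among the VTA punches. In the PBS VTA, normalised apart, Slc6a3 stood at 23280, 18330 and 17520 in the wild-type mice. In whole tissue, fewer cells of a type and less RNA per cell cannot be told apart.

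A set of 9 genes passed the test in both regions in the same direction. In all, 30 of 15638 genes tested were called in the accumbens (0.192%; 11 higher and 19 lower in Vdr-/- mice) and 10 of 16029 in the VTA (0.0624%; 6 higher and 4 lower), at an adjusted p under 0.05 in limma. The 9 shared genes were 30% of the accumbens calls and 90% of the VTA calls, and no gene was called in opposite directions. Tuba1c, Gm14150, Tmem181b-ps, Rpl3-ps1 and Cd59a were higher in the Vdr-/- mice, and Gm15446, Olfr287, Ide and Btaf1 were lower. No gene passed the test of the difference between regions (0 of 16445 tested, 0%), so that no gene is called confined to the accumbens or to the VTA. Below the adjusted threshold, 818 genes (4.97%) had an unadjusted p under 0.05 in that test, and edgeR on whole reads recovered from the values called 0 with 747 unadjusted, while DESeq2 called 2. On the mean of both regions, with a single value per mouse, 33 of 15222 genes were called (0.217%; 11 higher and 22 lower).

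Some of the shared genes are near-copies of others, and their sequences matter for reading the counts. Tuba1c encodes an alpha-tubulin, a subunit of microtubules, and Gm14150 is a processed pseudogene of the same family. The coding sequence of Tuba1c has 98.1% identity to that of Tuba1b (25 of 1347 bases differ) and 97.3% to that of Tuba1a (37 bases). Of the 25-base words of Tuba1c, 56.4% occur in some other gene, and 50.4% occur in Tuba1b. The pseudogenes Gm3756 and Gm3226, called in the accumbens, share 84.7% and 90.8% of their words with other genes.

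Rpl3-ps1 is a processed pseudogene of Rpl3, which encodes a protein of the large ribosomal subunit. Over the coding sequence the copies differ at 2 of 1209 bases (99.8% identity), and 95.8% of the 25-base words of Rpl3-ps1 also occur in Rpl3. The window below, of 60 bases on GRCm38 (GENCODE M21) and shown for a base that tells them apart, is in exon 2 of 10 of Rpl3 (chr15:80082523-80082582, minus strand) and at chrX:13202575-13202634 (plus strand) in Rpl3-ps1, with the differing base in capitals.
Rpl3: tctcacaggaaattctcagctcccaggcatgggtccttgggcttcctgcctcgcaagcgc
Rpl3-ps1: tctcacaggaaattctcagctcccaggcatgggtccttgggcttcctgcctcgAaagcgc
Counts of such genes are uncertain, since a read that matches both copies equally cannot be assigned to either by its sequence.

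Tuba1c rose the most of the shared genes. Its normalised read counts in the accumbens were 4.16, 4.24 and 6.45 in the wild-type mice and 384, 394 and 404 in the Vdr-/- mice. In the VTA they were 11.4, 11.1 and 10.4 in the wild-type mice and 672, 634 and 647 in the Vdr-/- mice. Every Vdr-/- value lay far above every wild-type value in both punches. The change was 6.07 ± 0.19 on the log2 scale (SE, adjusted p = 9.89e-09) in the accumbens and 5.77 ± 0.12 (adjusted p = 9.83e-07) in the VTA, and the difference between regions was 0.30, with a 95% confidence interval from -0.18 to 0.78. In whole reads, summed over the 3 mice and scaled to size, the Vdr-/- level was 82.6 times the wild-type level in the accumbens (95% interval 49.9 to 148, exact, for counting error alone) and 59.1 times in the VTA (42.1 to 85.5), and these intervals overlap.

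The tubulin pseudogene Gm14150 (chr2:151458956-151460309) moved with it. It stood at 3.33, 2.54 and 3.87 in the wild-type accumbens against 71.5, 129 and 111 in the Vdr-/- accumbens. The VTA values were 8.15, 3.02 and 6.91 against 195, 206 and 207, so the genotypes were apart in both regions. On the log2 scale Gm14150 changed by 4.60 ± 0.29 in the accumbens and 4.94 ± 0.31 in the VTA, and the ratio of whole reads was 33 and 32.9 in turn (17.7 to 69.6 and 20.9 to 55.1). Of its 25-base words, 83.6% occur in some other gene, and 76.3% occur in Tuba1b.

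Tmem181b-ps (chr17:6438524-6467022), a transcribed pseudogene that shares 55.6% of its 25-base words with Tmem181a, had the same change in both regions. The accumbens counts were 1384, 1227 and 1361 in the wild-type mice and 4307, 3827 and 3708 in the Vdr-/- mice. The VTA counts were 940, 705 and 840 against 2361, 2710 and 2285. The Vdr-/- values were the higher ones throughout, at a log2 change of 1.57 ± 0.07 in the accumbens and 1.57 ± 0.11 in the VTA. The difference between regions was 0.00337, with an interval from -0.31 to 0.31.

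Rpl3-ps1 stood at 55.8, 68.7 and 61.9 in the wild-type accumbens and at 266, 255 and 498 in the Vdr-/- accumbens. Its VTA counts were 83.1, 65.5 and 86.4 against 368, 399 and 659. Mouse 2.2 was the highest in both punches, and the log2 changes were 2.37 ± 0.21 and 2.55 ± 0.22, the latter not called without mouse 1.2 (adjusted p = 0.0795) or 2.1 (0.0523). Its parent gene Rpl3 went the other way, from 3822, 3538 and 3669 to 2624, 2505 and 1821 in the accumbens (log2 change -0.68 ± 0.11, adjusted p = 0.0334, and 0.0749, 0.073 and 0.0778 without mouse 1.1, 1.2 or 2.1) and from 5302, 4463 and 4875 to 3637, 3618 and 2550 in the VTA (-0.59 ± 0.14, adjusted p = 0.395). Mouse 2.2, highest for the pseudogene, was the lowest for Rpl3. With the values of Rpl3 and Rpl3-ps1 added, the log2 change was -0.50 in the accumbens and -0.41 in the VTA (exact permutation test, p = 0.1 in each, the smallest that 20 arrangements of 3 against 3 mice allow).

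Cd59a encodes a membrane protein that holds back the complement attack on the cell's own surface. Its accumbens counts were 68.3, 92.4 and 77.4 in the wild-type mice and 152, 195 and 191 in the Vdr-/- mice, and its VTA counts were 225, 281 and 250 against 488, 451 and 508. The genotypes did not overlap in either region. Cd59a changed in log2 by 1.17 ± 0.15 (adjusted p = 0.00496) in the accumbens and 0.94 ± 0.10 (adjusted p = 0.03) in the VTA, with a difference of 0.23 (interval -0.15 to 0.61). The adjusted p in the accumbens rose to 0.0733 without mouse 2.1 and 0.0606 without 2.2, and in the VTA to 0.241, 0.053, 0.115 and 0.239 without 1.2, 2.0, 2.1 and 2.2.

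Gm15446 (chr5:109923400-109943936), a protein-coding gene without a common name, fell the most. The accumbens counts were 401, 397 and 399 in the wild-type mice and 4.64, 3.86 and 3.00 in the Vdr-/- mice. The VTA counts were 424, 421 and 429 against 3.08, 2.75 and 1.11. The gene was close to silent in all 6 Vdr-/- libraries, at log2 changes of -6.38 ± 0.19 in the accumbens and -7.06 ± 0.27 in the VTA. Its region difference was 0.68, and the interval from 0.30 to 1.06 leaves out 0 (adjusted p = 0.904 in limma). That difference rests on 12 Vdr-/- reads in the accumbens and 7 in the VTA, and the wild-type to Vdr-/- ratios of whole reads, 101 (57.6 to 196) and 180 (87.1 to 449), have overlapping intervals. The gene shares 42.2% of its 25-base words with Zfp932.

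Olfr287 carries the identifier ENSMUSG00000090129 and is named Olfr286 in the deposited tables and Olfr287 in GENCODE M21. It belongs to the odorant receptor family, and 36.9% of its 25-base words lie in Gm44579, which overlaps it on the same strand, so reads of these genes cannot be fully separated. Its accumbens counts were 49.1, 41.5 and 36.1 in the wild-type mice and 1.86, 0.77 and 1.50 in the Vdr-/- mice. Its VTA counts were 84.8, 108 and 81.8 against 14.4, 11.9 and 11.1. Some transcript thus remained in the Vdr-/- VTA and next to none in the Vdr-/- accumbens, while the wild-type counts were higher in the VTA. Olfr287 changed in log2 by -4.20 ± 0.36 in the accumbens and -2.78 ± 0.20 in the VTA.

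Among the shared genes, Olfr287 had the smallest p for the difference between regions. The accumbens minus VTA value was -0.78, -1.36 and -1.16 in the wild-type mice and -2.43, -2.86 and -2.27 in the Vdr-/- mice. The genotypes did not overlap, as for 9.98% of all 16445 genes, and the difference was -1.42 (interval -2.0 to -0.85, adjusted p = 0.855 in limma, exact permutation p = 0.1). The wild-type to Vdr-/- ratio of whole reads was 32.7 in the accumbens (12.5 to 122, from 136 and 4 reads) and 7.33 in the VTA (5.19 to 10.6, from 282 and 37 reads). Those intervals do not overlap, but they cover counting error and not the spread between mice.

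Ide encodes insulin-degrading enzyme, a metalloprotease that breaks down insulin and amyloid beta. Its accumbens counts were 824, 858 and 950 in the wild-type mice and 407, 430 and 420 in the Vdr-/- mice, and its VTA counts were 1015, 1058 and 1005 against 580, 496 and 484. Every Vdr-/- library was below every wild-type library of its region. The log2 change was -1.06 ± 0.07 in the accumbens and -0.98 ± 0.08 in the VTA, with a difference of -0.08 (interval -0.39 to 0.23). The VTA call was lost without mouse 1.2 (adjusted p = 0.0726) or 2.1 (0.0523).

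Btaf1, which encodes an ATPase that takes the TATA-binding protein off DNA, lies near Ide on chromosome 19 (chr19:36926079-37012752 against chr19:37268743-37337852). The accumbens counts were 1360, 1412 and 1388 in the wild-type mice and 1070, 958 and 913 in the Vdr-/- mice, and the VTA counts were 1072, 1070 and 1091 against 682, 751 and 627. It had the smallest change of the shared genes, -0.50 ± 0.06 in the accumbens (adjusted p = 0.00496) and -0.65 ± 0.07 in the VTA (adjusted p = 0.0389). The VTA call was kept without mouse 1.1 alone and otherwise had an adjusted p of 0.0523 to 0.316, and the accumbens call was lost without 2.1 (0.0624). Little of its sequence, 0.895% of the 25-base words, occurs elsewhere, and for Ide the share was 1.16%, so both are set apart from the genes with near-copies.

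**Figure D1:**
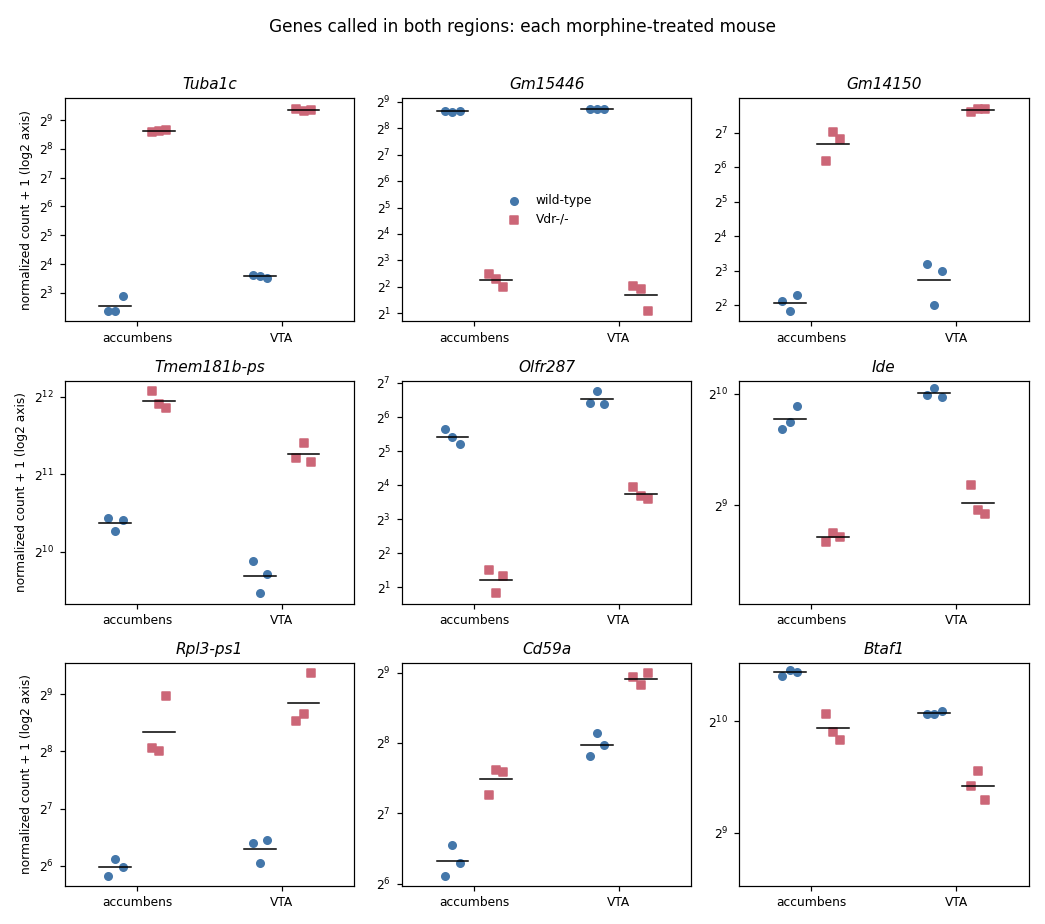
Normalised count plus 1 (log2 axis) of the 9 shared genes in each morphine library, by region, with circles for wild-type and squares for Vdr-/- mice and a line at the geometric mean of each group of 3. The genotypes are apart in both regions for each of the 9 genes, most widely for Gm15446 and Tuba1c.

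Such a separation is what the rule chose these genes for. Over all genes tested, the 3 against 3 values did not overlap for 13.5% in the accumbens and 14.5% in the VTA. The rule set no limit on the region difference. That difference is the accumbens change minus the VTA change, and the rule chose on both changes in the same libraries. It is thus not a separate check of these genes. Its interval holds 0 for 7 of the 9 and leaves it out for Gm15446 and Olfr287. For the 9 genes the distance from the estimate to either end of that interval had a median of 0.383, against 0.358 over all genes. These intervals are not corrected for the number of genes, so that size is not the limit of the test. Larger differences also went uncalled, such as -1.42 for Olfr287 (adjusted p = 0.855 in limma). An interval that holds 0 does not show that the effect was equal.

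Mice that took no part in the choice gave the same directions. In the PBS-treated mice all 9 genes changed in the same direction as with morphine in both regions, and 6 were called in the accumbens (11 of 15933 genes, 0.069%) and 9 in the VTA (64 of 16425, 0.39%). The shared genes called ranged from 2 (without Vdr-/- mouse 8; 3 without 9) to 8 (without wild-type mouse 2) in the accumbens and from 6 (without 1 or 3) to 9 (without 8) in the VTA when a PBS mouse was left out. Over all genes these calls ranged from 2 (without 8) to 28 (without 2) in the accumbens and from 13 (without 2) to 370 (without 8) in the VTA. The 3 not called in the PBS accumbens with all mice were Ide (log2 change -0.76), Cd59a (1.19) and Btaf1 (-0.36). Tuba1c changed by 4.69 in the PBS accumbens and 5.30 in the PBS VTA, and Gm15446 by -6.64 and -7.13. Olfr287 again had the larger fall in the accumbens, from 42.1, 37.1 and 38.1 to 0, 1.03 and 1.85, than in the VTA, from 175, 148 and 150 to 36.7, 27.4 and 29.5, at log2 changes of -4.48 and -2.31. In these mice values of the genotypes were fully apart for 16.9% of genes tested in the accumbens and 20.5% in the VTA, and the difference between regions was not tested.

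The tubulin genes that fell lie beside Tuba1c on chromosome 15. Tuba1b went from 2093, 2362 and 2249 in the wild-type accumbens to 1617, 1771 and 1748 in the Vdr-/- accumbens (log2 change -0.38 ± 0.06, adjusted p = 0.0277) and from 4698, 4626 and 4923 to 3729, 3079 and 3098 in the VTA (-0.53 ± 0.08, adjusted p = 0.148). The accumbens call was lost with any mouse but 1.0 left out (adjusted p of 0.0701 to 0.138). In PBS mice Tuba1b changed by -0.32 in the accumbens (adjusted p = 0.482) and -0.54 in the VTA (adjusted p = 0.012, both in limma). Tuba1a, called on the mean of both regions, changed by -0.34 ± 0.07 in the accumbens and -0.40 ± 0.06 in the VTA. Both are major alpha-tubulins of the brain. With Tuba1a, Tuba1b and Tuba1c added, the log2 change was -0.28 in the accumbens and -0.36 in the VTA (exact permutation test, p = 0.1 in each). Reads shared among these genes were not resolved here, and their part in the rise of Tuba1c and the falls of Tuba1a and Tuba1b was not tested.

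Of the called genes, 6 lie within 10 Mb (megabases) of Vdr, which is at chr15:97854425-97910630. Of 183 genes tested in that window, 3.28% were called in at least one fit, against 0.261% of all genes tested. Slc38a2 lies 1.17 Mb and Rpap3 0.179 Mb to the left of it, and Olfr287 (0.353), Tuba1b (1.08), Tuba1a (1.095) and Tuba1c (1.18) to the right. Rpap3, a partner of the chaperone Hsp90, went from 313, 326 and 335 in the wild-type accumbens to 225, 246 and 243, and from 459, 480 and 487 in the wild-type VTA to 378, 354 and 342. It was called on the mean of both regions (log2 change -0.43 ± 0.05, adjusted p = 0.0149), though not without mouse 1.1, 1.2, 2.1 or 2.2 (0.0544, 0.0934, 0.072 and 0.0894). DNA around a targeted gene can come from the strain of the embryonic stem cells, which the sources used here do not give, and its part in these calls was not tested. No gene of the window was called for the difference between regions.

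**Figure D2:**
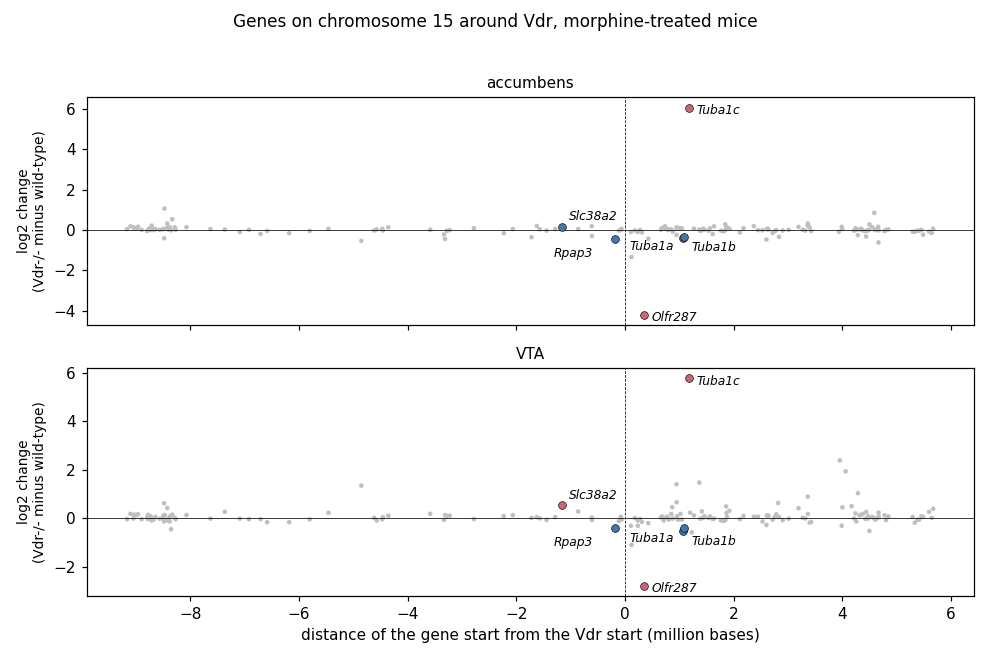
Log2 change (Vdr-/- minus wild-type) in the accumbens (top) and the VTA (bottom) of genes tested within 10 Mb of Vdr, against the distance of their start from that of Vdr in Mb. Red points were called in that region, blue points in another fit, and grey points in none, and Tuba1c and Olfr287 stand farthest from 0 in both regions.

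Called genes also lay near each other on other chromosomes. Dynlt1b, a dynein light chain gene (chr17:6430112-6436296), is next to Tmem181b-ps and was called on the mean of both regions. Its accumbens counts were 10.8, 22.9 and 14.2 in the wild-type mice and 36.2, 44.8 and 43.5 in the Vdr-/- mice, and its VTA counts were 18.7, 17.1 and 33.4 against 77.0, 78.7 and 84.2. The log2 changes were 1.38 ± 0.28 and 1.81 ± 0.26, with no overlap in either region, and the call was lost without mouse 2.1 or 2.2 (adjusted p of 0.0648 and 0.0706). As 85.9% of its 25-base words are in Dynlt1c, its counts are uncertain. Ide and Btaf1 on chromosome 19 and Bex1 (chrX:136213972-136215513) and Bex2 (chrX:136066564-136068236) are other pairs of this kind, though not directly adjoining. Bex2 shares 21.2% of its 25-base words with Bex1. How often such pairs occur among other genes was not tested.

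Promoters (250 bases before to 50 after the start, RefSeq, GRCm38.p6) were searched on both strands for the direct repeats that the receptor is known to bind. The direct repeats of AGGTCA and of GGTTCA, each with any 3 bases between the units, both occurred in 2 of 32851 promoters (0.00609%) and in none of the 6 shared genes that had a promoter in the table (Cd59a, Gm15446, Olfr287, Tuba1c, Btaf1 and Ide). The unit AGGTCA alone, which its repeat contains, occurred in 2 of these 6 and in 16.3% of all promoters, and GGTTCA in 1 of 6 and in 10.4%. A match here is a description of the letters alone.

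A further 21 genes were called in the accumbens and not in the VTA, and the VTA values mostly lay on the same side. All 21 were tested in the VTA, where 18 had the same sign, 16 of these with an unadjusted p under 0.05 in limma. Over all genes tested in the VTA, 1406 of 16029 had such a p, in either direction. Of the 21, 12 were called on the mean of both regions, which includes the accumbens values that chose them. Those calls are thus not a separate check of the VTA. The 15 that fell had a median log2 change of -0.47 in the accumbens and -0.39 in the VTA, and the 6 that rose 0.86 and 0.96. The change was smaller in the VTA for 12 of the 21 (57.1%). The interval of the region difference held 0 for 20 of them, and the exception was Rapgef4. With DESeq2, 9 of the 21 were called in both regions in the same direction, and with edgeR 0, so the single-region label depends on the tool. The 9 were Birc6, Gabra2, Gm3226, Gm3756, Mdn1, Mid1, Rpl3, Tuba1b and Vps13b. Gabra2, Gm3756, Mid1, Gm3226 and Fat3 were called in the accumbens whichever mouse was left out, and each of the other 16 lost the call without at least 1 mouse. The median SE was 0.096 in the accumbens and 0.109 in the VTA over all genes, and the smallest called log2 change was 0.289 in the accumbens and 0.537 in the VTA.

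Gabra2, which encodes the alpha-2 subunit of the GABA-A receptor, had the smallest adjusted p of these genes. Its accumbens counts were 1654, 1654 and 1716 in the wild-type mice and 3281, 3168 and 3276 in the Vdr-/- mice, and its VTA counts were 1446, 1000 and 1255 against 2294, 3336 and 2828. The accumbens mice of a genotype lay close together, while those of the VTA were spread. The log2 change was 0.95 ± 0.05 (adjusted p = 7.06e-07) in the accumbens and 1.19 ± 0.16 (adjusted p = 0.115) in the VTA. The larger change was thus in the region without the call, and the difference of -0.24 had an interval from -0.73 to 0.26. In the PBS mice Gabra2 was called in both regions, at 0.95 (adjusted p = 0.00859) and 1.29 (adjusted p = 0.00238).

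Other genes of this group had VTA changes of the same sign that did not pass the limma test there. Mid1, an X-linked ubiquitin ligase on microtubules, stood at 201, 259 and 172 in the wild-type accumbens against 79.0, 78.0 and 72.1, and at 168, 319 and 242 in the wild-type VTA against 87.3, 76.9 and 89.7. Its log2 changes were -1.43 ± 0.15 and -1.47 ± 0.22. In PBS mice the changes of Mid1 were -1.44 in the accumbens and -1.05 in the VTA, neither called. The tubulin pseudogenes Gm3756 and Gm3226 rose by 2.97 and 1.80 on the log2 scale in the accumbens and had 3.36 and 1.96 in the VTA. Both pseudogenes were called in both regions of the PBS mice, at 4.55 and 3.10 in the accumbens and 3.86 and 2.96 in the VTA. Aim2, an inflammasome sensor of DNA, changed by -1.33 ± 0.20 in the accumbens and -0.75 ± 0.21 in the VTA, and the interval of the region difference held 0 (-1.29 to 0.13). In PBS mice Aim2 changed by -1.17 in the accumbens (adjusted p = 0.184) and -1.17 in the VTA (adjusted p = 0.0472, both in limma). Bex1, an X-linked gene expressed in neurons, changed by -0.49 in the accumbens and -0.52 in the VTA.

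Fat3, Birc6, Mdn1, Vps13b and Akap9 also fell in the accumbens, and all but Fat3 were named after their values were seen. Fat3, a giant cadherin of neurons, stood at 3078, 2912 and 3100 in the wild-type mice and at 2201, 2258 and 1952 in the Vdr-/- mice, and in the VTA at 2395, 1988 and 1878 against 1693, 1604 and 1605. Its log2 changes were -0.51 ± 0.06 (adjusted p = 0.00401) and -0.35 ± 0.09 (adjusted p = 0.436). Birc6, Mdn1, Vps13b and Akap9 fell by 0.47, 0.47, 0.35 and 0.32 on the log2 scale in the accumbens. In the VTA they had changes of -0.44, -0.60, -0.39 and -0.19, which did not pass in limma. In PBS mice the changes of the 5 genes were above 0 in the accumbens (Fat3 0.21, Birc6 0.37, Mdn1 0.32, Vps13b 0.35 and Akap9 0.17) and below 0 in the VTA (-0.16, -0.18, -0.13, -0.06 and -0.00236), with none called. In the PBS accumbens wild-type mouse 2 had the lowest value of each of the 5, such as 1464 for Fat3 against 3546 and 3929 in the other wild-type mice. The part of that library in these values was not tested. With morphine, Vdr-/- mouse 2.2 had the fewest reads in the accumbens (9328602) and the lowest value of each of the 5 there. The other Vdr-/- mice also lay below all wild-type mice. The short RNAs Rn7sk and Rpph1 were higher in the Vdr-/- accumbens, and mouse 2.2 was highest for both. Rn7sk stood at 1325, 1276 and 1018 against 1775, 1720 and 2315, and Rpph1 at 228, 196 and 156 against 325, 295 and 365. The part of depth or RNA quality was not tested.

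A group of 3 genes had a VTA change near 0 or of the other sign. Zbtb20, a zinc finger repressor with a known part in the hippocampus, stood at 6306, 6372 and 6046 in the wild-type accumbens and at 4891, 4542 and 4429 in the Vdr-/- accumbens. Its VTA counts were 3765, 2394 and 2606 against 2271, 3524 and 2966 and overlapped. The accumbens change was -0.44 ± 0.05 (adjusted p = 0.00482) and the VTA change 0.00 ± 0.20. Their difference of -0.44 had a wide interval, from -1.07 to 0.19. The accumbens call was lost without mouse 2.1 (adjusted p = 0.0624) or 2.2 (0.0606).

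Dlx6os1, an antisense RNA at the Dlx5 and Dlx6 genes of GABA neurons, stood at 691, 708 and 679 in the wild-type accumbens and at 532, 502 and 462 in the Vdr-/- accumbens. In the VTA it was spread from 32.3 to 132 with overlap, and the region difference of -0.50 had an interval from -2.07 to 1.08. The VTA therefore says little about this gene, and its accumbens call was lost without mouse 1.1, 2.1 or 2.2 (adjusted p of 0.0599, 0.0842 and 0.075). It overlaps other RNAs of the locus on both strands, and the strand setting of the counting is not given in the sources used here.

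Rapgef4 encodes EPAC2, an exchange factor that cAMP activates. It stood at 5480, 5214 and 5542 in the wild-type accumbens and at 4551, 4271 and 3941 in the Vdr-/- accumbens. The VTA counts were 3513, 4383 and 3710 against 3990, 4492 and 4369, which overlapped. The accumbens minus VTA value was 0.64, 0.25 and 0.58 in the wild-type mice and 0.19, -0.07 and -0.15 in the Vdr-/- mice, so the genotypes were apart. The change was -0.35 ± 0.06 in the accumbens (adjusted p = 0.044) and 0.15 ± 0.09 in the VTA, and the difference was -0.50 (interval -0.86 to -0.14, adjusted p = 0.956 in limma, exact permutation p = 0.1). Of the genes called in a single region it was the gene whose interval left out 0, and it failed the correction. The accumbens call was lost without mouse 1.1, 1.2, 2.1 or 2.2 (adjusted p of 0.0816, 0.0997, 0.249 and 0.246). In PBS mice the change was -0.33 in the accumbens and -0.01 in the VTA, with overlap in both.

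Slc38a2 was the single gene called in the VTA and not in the accumbens. It encodes SNAT2, an amino acid transporter that takes up glutamine and rises when cells lack amino acids. Its VTA counts were 3025, 3023 and 3230 in the wild-type mice and 4376, 4360 and 4729 in the Vdr-/- mice, with no overlap, and its accumbens counts were 1953, 1428 and 2087 against 1876, 2119 and 2081, which overlapped. The log2 change was 0.54 ± 0.06 in the VTA (adjusted p = 0.03) and 0.17 ± 0.11 in the accumbens (adjusted p = 0.759). The region difference of -0.37 had an interval from -0.76 to 0.02 that just holds 0 (adjusted p = 0.956 in limma). The VTA call was lost without mouse 1.0, 1.2, 2.1 or 2.2 (adjusted p of 0.0505, 0.163, 0.127 and 0.231). With all mice, edgeR (adjusted p = 0.0257) and DESeq2 (adjusted p = 5.55e-10) also called Slc38a2 in the VTA, and neither called its region difference. In PBS mice it was not called, at -0.09 in the accumbens and -0.16 in the VTA.

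**Figure D3:**
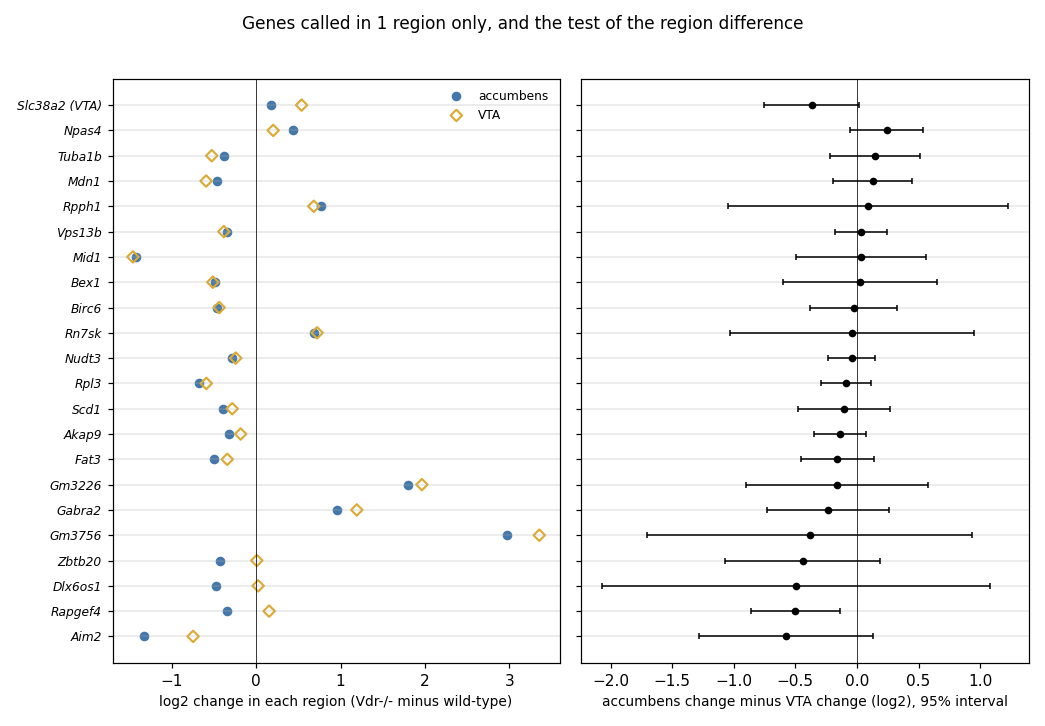
Genes called in a single region, with the log2 change (Vdr-/- minus wild-type) in the accumbens (circles) and the VTA (diamonds) on the left and the accumbens change minus the VTA change with its 95% confidence interval on the right. The interval leaves out 0 for Rapgef4 and holds it for the other genes, of which Slc38a2 is the one called in the VTA.

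**Figure D4:**
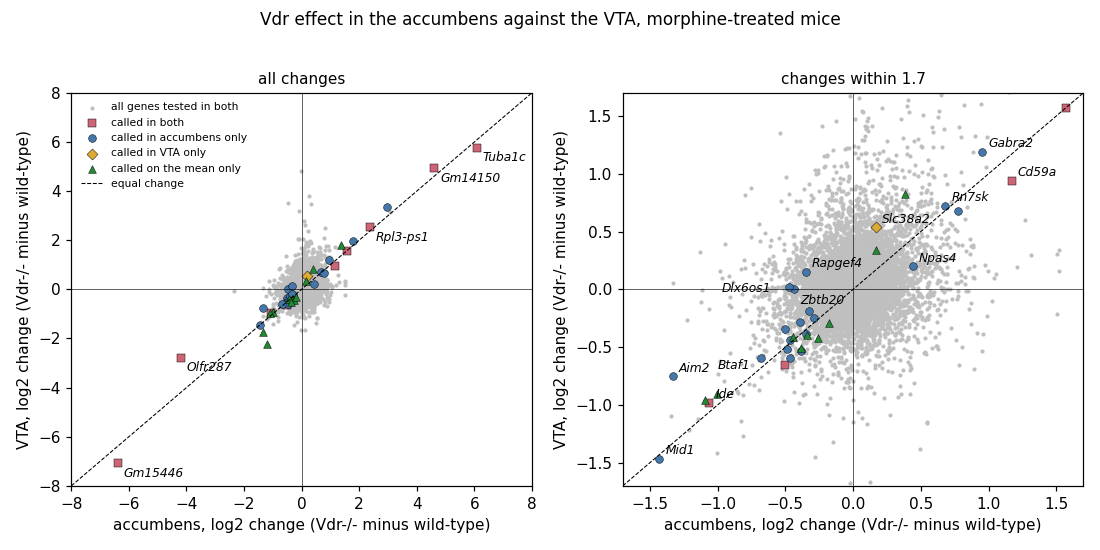
Log2 change (Vdr-/- minus wild-type) in the accumbens (x axis) against the VTA (y axis), over the whole range on the left and close to 0 on the right, with grey points for the genes tested in both regions, marked symbols for the called genes and a dashed line of equal change. Shared genes lie along the line, with Olfr287 the farthest from it, and Rapgef4, Zbtb20 and Dlx6os1 lie at or above 0 in the VTA.

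A further 12 genes were called on the mean of both regions and in neither region alone, 3 higher and 9 lower, all with the same sign in both. Crb1, a polarity protein, stood at 39.96, 50.02 and 45.15 in the wild-type accumbens against 19.5, 21.6 and 16.5, and at 140, 78.6 and 121 in the wild-type VTA against 21.6, 34.8 and 15.5. The log2 change was -1.19 ± 0.22 and -2.23 ± 0.33, and the region difference of 1.04 had an interval from 0.20 to 1.88 (adjusted p = 0.956 in limma). It was the gene of the 12 whose interval left out 0, and each of the 12 lost the call without at least 1 mouse (Crb1 without 1.2, adjusted p = 0.0771). Ifit3, an interferon-induced gene, changed by -1.34 ± 0.28 and -1.75 ± 0.25, and 66.1% of its 25-base words are in Ifit3b. Macf1, which links actin and microtubules, changed by -0.39 and -0.51, and Sytl5, a Rab27 effector, by -1.0 and -0.90.

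Genes induced by neuronal activity were, for the most part, higher in the Vdr-/- mice, and 1 of them passed the test. Of 30 such genes tested in the accumbens, 25 were higher and 5 lower with a median log2 change of 0.19, and in the VTA 20 of 29 were higher with a median of 0.11, against medians of 0.001 and 0 over all genes. Npas4, a transcription factor switched on by calcium entry, stood at 405, 426 and 439 in the wild-type accumbens and at 587, 613 and 526 in the Vdr-/- accumbens (log2 change 0.44 ± 0.07, adjusted p = 0.044). Its VTA counts were 177, 156 and 175 against 210, 188 and 186 (0.20 ± 0.10, adjusted p = 0.597). The accumbens minus VTA value was 1.19, 1.44 and 1.32 against 1.48, 1.703 and 1.49, a difference of 0.24 with an interval from -0.06 to 0.54. The early gene Egr1 changed by 0.08 in the accumbens and -0.14 in the VTA, and neither passed. For the list, 14 of 30 differences between regions were higher and 16 lower, with a median of -0.02. The summed level was 1496, 1638 and 1722 CPM in the wild-type accumbens and 2095, 1780 and 1630 in the Vdr-/- accumbens, and these overlapped. The Npas4 call was kept without mouse 2.2 alone and otherwise had an adjusted p of 0.057 to 0.292. In the PBS accumbens Npas4 had a log2 change of -0.57 and was not called.

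Of the genes of the opioid system, none passed in either region. Over all genes tested, 0.192% were called in the accumbens and 0.0624% in the VTA, so a list of this size would likely hold none. In the accumbens 10 of 17 were lower (median -0.11) and in the VTA 12 of 17 (median -0.07). Penk, the enkephalin precursor, stood at 8390, 6594 and 7235 in the wild-type accumbens against 6806, 5962 and 6351, a log2 change of -0.21 (adjusted p = 0.599), and changed by -0.17 in the VTA. Gnao1, a G protein of these receptors, changed by -0.01 and 0.00. Of the genes of dopamine receptor signaling, 12 of 15 were lower in the accumbens (median -0.09) and 7 of 15 in the VTA (median 0.02), again with none called.

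Of the genes of the vitamin D system, none was called either, and the low share over all genes (0.192% and 0.0624%) makes that likely for short lists. Of 13 known receptor targets tested in the accumbens 9 were higher (median 0.05), and in the VTA 8 of 12 (median 0.08), with none called. Atp2b1, a calcium pump, changed by -0.07 and -0.25, and Calb1, the calcium buffer calbindin, by 0.05 and -0.44. Of the receptor's partners and the enzymes of vitamin D metabolism, 8 of 13 were higher in the accumbens and 7 of 12 in the VTA, and the corepressor Ncor1 (-0.02 and -0.01) was not called. None of these genes was called for the difference between regions.

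Dopamine neuron genes had no call in the VTA, where they define the punch and where 0.0624% of all genes tested were called. Their values are given beside the results above. In the VTA 24 of 25 were higher in the Vdr-/- mice with a median log2 change of 0.82, and 21 of 25 region differences were lower with a median of -0.85, while 0 were called in either test. Th, the rate-limiting enzyme of dopamine synthesis, stood at 544, 1083 and 404 in the wild-type VTA and at 1614, 1141 and 2449 in the Vdr-/- VTA, and Slc6a3 at 467, 2597 and 234 against 4002, 2625 and 6154. The genotypes were apart with gaps that were small beside the spread within a genotype. In the PBS VTA the sign was the other: Th was 8652, 6874 and 6634 in the wild-type mice and 4057, 6504 and 1181 in the Vdr-/- mice (log2 change -1.22, adjusted p = 0.351). Slc6a3 there was 23280, 18330 and 17520 against 10270, 16540 and 2644 (log2 change -1.35, adjusted p = 0.344 in limma). The PBS wild-type levels were above all 6 morphine VTA libraries, in tables normalised apart. The amount of dopamine neuron RNA thus varied widely among the VTA punches. The summed level of the list in the morphine VTA was 1007, 1758 and 1014 CPM against 2073, 1643 and 2555, and its part in the region differences of other genes was not tested.

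Some of the other marker lists are given beside these, with no member called in the VTA, where 0.0624% of all genes tested were called. Of 6 serotonin neuron genes tested in the VTA, 6 were higher (median 1.26), and 5 of 6 region differences were lower (median -1.13), with the summed level at 76.7 to 155 CPM in the wild-type VTA and 181 to 338 in the Vdr-/- VTA. That list shares En1, Slc18a2 and Ddc with the dopamine neuron list. Meninges genes were higher in the Vdr-/- VTA for 15 of 15 (median 1.07), at a summed 139, 89.4 and 61.7 CPM in the wild-type mice against 82.1, 279 and 338, where mouse 2.0 lay within the wild-type range. Blood genes were higher for 6 of 6 (median 1.26), and thalamus genes were lower for 10 of 11 (median -0.71), with all 11 region differences higher. Genes of the hypothalamus and mammillary nuclei were higher in the VTA for 7 of 13 and lower for 6 (median 0.18). Their summed VTA level was 260 to 1110 CPM (median 1020) in the wild-type mice and 242 to 373 (median 332) in the Vdr-/- mice, which overlapped. Oligodendrocyte genes were lower in the accumbens for 19 of 20 (median -0.17) and higher in the VTA for 17 of 20 (median 0.14), and all 20 region differences were lower (median -0.30). The myelin gene Mbp changed by -0.18 in the accumbens and 0.21 in the VTA (adjusted p = 0.601 and 0.767). Medium spiny neuron genes were lower in the accumbens for 20 of 21 (median -0.16), at 6657, 5469 and 5571 CPM against 5556, 4917 and 5063. Zbtb20, of the hippocampus list, was the sole marker among these lists that was called, in the accumbens. None of these markers was called for the difference between regions, and their part in the calls above was not tested.

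**Figure D5:**
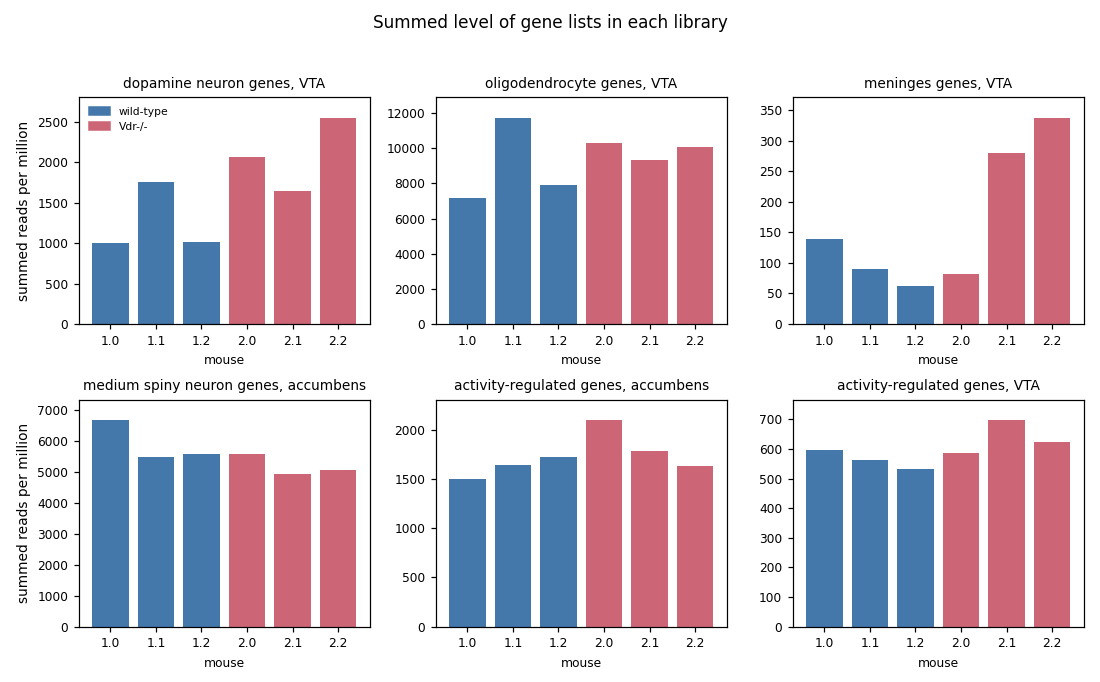
Summed CPM of the genes of a list in each morphine library, with a bar per mouse (wild-type mice 1.0 to 1.2, Vdr-/- mice 2.0 to 2.2) and an axis that starts at 0. Dopamine neuron genes range from 1007 to 2555 and meninges genes from 61.7 to 338 among VTA libraries, and medium spiny neuron genes from 4917 to 6657 in the accumbens.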

How the data were processed

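The authors trimmed 101-bp paired reads (Trimmomatic 0.36; base calls from CASAVA 1.8), aligned and counted them with STAR 2.4.2a on GENCODE genes of GRCm38, and deposited counts divided by DESeq2 size factors, with 1 table per region and injection. The strand setting of the counting and the deleted part of Vdr are not given in the sources used here. The deposited values are a signal per gene on the scale of counts, and each table was normalised on its own, so genotypes were compared within a table. Of 29980 gene identifiers, 29914 (99.8%) had a symbol and position in GENCODE M21. All values in the 24 libraries were whole reads once divided by the value of a single read (tolerance 0.01), and reads on genes are sums of these.

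Values were taken as log2(value + 1), so a change in genes of low counts is understated. Genes with a mean of at least 10 were tested with limma 3.58.1 (R 4.3.3; variance trend, two-sided, Benjamini-Hochberg adjustment, threshold 0.05): in each region, on the accumbens minus VTA difference of each mouse (mean of at least 10 in either region), and on the mean of both regions of each mouse (in both). Shared genes were called in both regions in 1 direction, and a gene counted as confined to a region only if the region difference was called too. The 95% confidence intervals are those of limma, and ratios of whole reads carry exact Clopper-Pearson intervals for counting error alone. The labels number separate mice but give no litters, and p-values measure only the spread between these mice. edgeR 4.0.16 and DESeq2 1.42.0 were run on the recovered reads as alternatives, beside other pseudocounts, filters, normalisation, a block and leaving out each mouse. The scripts were tested on simulated data.

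Genes named are the shared genes, the genes called in a single region with no overlap (up to 8, by adjusted p), called members of the lists and up to 3 of their most expressed members, called genes within 10 Mb of Vdr and the 10 genes called on the mean alone with the smallest p. Other genes named (Akap9, Bex1, Birc6, Mdn1, Rapgef4, Rn7sk, Rpl3, Rpph1, Vps13b, Th, Slc6a3, Nptx2 and Rtn4rl2) were chosen after their values were seen. The members and lists were chosen with earlier results of these data known. Sequences are from GENCODE M21 and RefSeq, and 25-base words were compared over all annotated transcripts on the same strand. The same mouse gave both regions, which pairs them, although same-numbered libraries deviated together only weakly (correlation -0.068 to 0.234 over 12120 genes, the highest with its own number in 3 of 6 mice). Some items withheld from this account are not reported here.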

Additional observations from a re-analysis of the deposited data

How the results depend on the processing

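The number of calls moved with the processing. For the named genes, values were followed under the alternatives only in the fits that had called them. Of these, 546 kept their direction and side of the threshold, 226 kept the direction and lost the call, and 0 reversed. The alternatives reuse the same libraries, so a reversal was unlikely from the start and its absence is not a separate check. Tuba1c, Gm15446 and Gm14150 were shared under 15 of 15 alternatives, Tmem181b-ps and Olfr287 under 13, Rpl3-ps1 under 12, Ide under 11, Cd59a under 9 and Btaf1 under 7. Without the variance trend, calls were 10 in the accumbens, 5 in the VTA, 10 on the mean and 4 shared. DESeq2 gave 53, 92, 128 and 26, with 2 for the region difference (Nptx2 and Rtn4rl2) and 1 confined to the VTA (Rtn4rl2). With the last digit of the mouse number as a replicate block they were 19, 4, 15 and 4; that digit does not pair the genotypes (correlations -0.003 to -0.288). Without the mouse as a block, the region difference had 0 calls, 770 unadjusted. No filter gave 57 calls on the mean. A call in 1 region with an unadjusted p under 0.05 in the other gave 25 shared genes, and an unadjusted p for the region difference gave 1 gene confined to the accumbens (Rapgef4). Leaving out a mouse gave 14 (without 2.1) to 47 (without 1.0) calls in the accumbens, 5 (without 2.1) to 49 (without 1.1; 36 without 2.0) in the VTA, 17 (without 2.1) to 87 (without 2.0) on the mean and 5 (without 1.2 or 2.1) to 12 (without 1.0) shared genes, while the region difference stayed at 0. Leaving out each PBS mouse, added after seeing the data, left the directions of the 9 shared genes as they were. The cause of these changes was not tested. Of the medians of the activity-regulated and dopamine neuron lists, 1 moved by more than the replicate spread, that of the activity-regulated genes in the VTA (0.23 without mouse 1.0). Depth limits Vdr, Olfr287 and Gm15446, which have few reads in some libraries.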

Other observations

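Nptx2, a pentraxin of excitatory synapses that is induced by activity, was named after its values were seen, as 1 of 2 genes that DESeq2 called for the region difference. Its counts were 284, 387 and 468 in the wild-type accumbens and 594, 562 and 482 in the Vdr-/- accumbens, and 368, 223 and 369 in the wild-type VTA and 158, 145 and 117 in the Vdr-/- VTA. The genotypes were apart in both regions in opposite directions, narrowly in the accumbens (468 in mouse 1.2 against 482 in mouse 2.2). Over all genes tested, the genotypes were apart for 13.5% in the accumbens and 14.5% in the VTA. The DESeq2 log2 change was 0.54 in the accumbens (adjusted p = 0.0472) and -1.19 in the VTA (adjusted p = 5.9e-05), and the difference was 1.72 (adjusted p = 2.16e-05). In limma the change was 0.55 in the accumbens (adjusted p = 0.341) and -1.16 in the VTA (adjusted p = 0.215). The limma difference was 1.71 (adjusted p = 0.855), and edgeR gave the difference an adjusted p of 0.522. In PBS mice the limma change in Nptx2 was 0.11 in the accumbens (adjusted p = 0.904) and 1.02 in the VTA (adjusted p = 0.366), so the VTA sign was the other.

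Rtn4rl2, a Nogo receptor homologue, was the other gene. In the VTA it had 1, 1 and 2 reads in the wild-type mice and 7, 84 and 47 in the Vdr-/- mice, and in the accumbens 145, 187 and 203 against 240, 260 and 128. The DESeq2 region difference in Rtn4rl2 was -4.56 (adjusted p = 0.0152), the limma one -3.56 (adjusted p = 0.956). In the PBS VTA Rtn4rl2 had 23, 7 and 90 reads in the wild-type mice and 9, 77 and 15 in the Vdr-/- mice, which overlapped.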
